A study of Mus musculus with 38 samples.

Results

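The tumour necrosis factor gene and 9 genes of the NF-κB response, several of which restrain it, were followed through colitis in epithelial cells of the mouse intestine. The genes were Tnf, Nfkbia, Nfkbiz, Tnfaip3, Zc3h12a, Birc3, Relb, Nfkb1, Nfkb2 and Tnfaip2. They were taken by symbol, not by their values, and are 10 of the 46078 genes counted. All 10 passed the filter on low counts in each comparison. Each had at least 1 count in every library, and at least 3 counts in every library but d0_KO_32, where Tnfaip2 had 2.

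RNA was sequenced from isolated intestinal epithelial cells of C57BL/6 mice, with 1 animal per library and 38 libraries in all. KO mice, labelled Hk2∆IEC, carried a floxed Hk2 allele and expressed Cre recombinase from the Villin promoter, which is active in the intestinal epithelium. Hk2 encodes hexokinase 2, which phosphorylates glucose at the entry to glycolysis. WT mice were their Hk2 fl/fl littermates, so that they too carried floxed Hk2 alleles, and both genotypes shared cages. Males of 10 to 12 weeks, per the labels, drank 1.5% dextran sodium sulfate (DSS), a chemical that injures the colon lining and causes colitis. The groups were WT day 0 (n = 4) and KO day 0 (n = 5) without DSS, WT day 3 (n = 7) and KO day 3 (n = 8), and WT day 7 (n = 7) and KO day 7 (n = 7). The labels give mice of 9 to 11 and of 86 to 92 weeks for basal phenotyping and do not say which of these ages, or which sex, the day 0 mice had.

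NF-κB is a family of transcription factor dimers that are held in the cytoplasm by inhibitors of the IκB family until a signal such as tumour necrosis factor (TNF) leads to the destruction of the inhibitor. The freed dimers then switch on inflammatory genes together with genes that end the signal, among them IκBα itself, the ubiquitin-editing enzyme A20 and the ribonuclease regnase-1, so that the pathway restrains itself. In the intestinal epithelium this circuit is known for setting the balance between repair, inflammation and cell death when bacteria and cytokines reach the mucosa.

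The κB site is the short DNA element that NF-κB dimers bind, and promoter windows of RefSeq (build GRCm38.p6, 250 bases before to 50 after each start site) were searched for the 10-base κB consensus on both strands. Windows were present for 7 of the 10 genes. Of all 32851 windows 4.51% held a match. Matches were found in windows of Nfkbia, Tnfaip3 and Nfkb2. The windows of Tnf, Zc3h12a, Birc3 and Tnfaip2 held none, which says only that these letters were not in these windows. The stretches below are shown because Tnf, Nfkbia and Tnfaip3 were the ligand and the inhibitors with the greatest levels or changes here, and Nfkb2 because its window held the most matches. Capitals mark a κB consensus match, and each sequence is on the strand of the gene.
Nfkbia, chr12:55492648-55492897, minus strand, bases -250 to -1 from the start site: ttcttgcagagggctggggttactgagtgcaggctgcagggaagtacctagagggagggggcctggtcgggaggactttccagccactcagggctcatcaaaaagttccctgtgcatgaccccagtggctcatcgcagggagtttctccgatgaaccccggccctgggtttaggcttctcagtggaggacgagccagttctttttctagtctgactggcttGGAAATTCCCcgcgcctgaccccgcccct
Tnf, chr17:35202008-35202257, minus strand, bases -250 to -1: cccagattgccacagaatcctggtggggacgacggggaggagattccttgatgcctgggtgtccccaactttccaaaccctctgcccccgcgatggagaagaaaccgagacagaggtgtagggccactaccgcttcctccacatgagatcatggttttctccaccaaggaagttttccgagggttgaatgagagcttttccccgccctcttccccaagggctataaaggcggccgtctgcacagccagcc
Tnfaip3, chr10:19015411-19015435, minus strand, bases -25 to -1: tggaatttccatcGGAAATCCCCct
Nfkb2, chr19:46304692-46304721, plus strand, bases -45 to -16: cgtcacGGGAATTCCCCccctcggggggcc
The capitals in the Nfkb2 stretch cover matches that overlap by all but 1 base. A match is a description of the sequence and not evidence of binding.

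Libraries held 10.5 to 60.6 M counts each, and 3 counts, taken as the lowest level that could be shown, corresponded to 0.0495 to 0.286 CPM (counts per M counts of the library), which covers counting error only. Levels below are CPM after TMM scaling, a correction for differences in composition between libraries. The day 0 libraries carry a different prefix in their file names from the day 3 and day 7 libraries, and the gene with the most counts was mt-Rnr2 in each of them and mt-Co1 in each of the others, so that an effect of day 0 and one of the series of libraries cannot be told apart. In d0_KO_32 the 10 most abundant genes took 63.3% of all counts, and its scaling factor was 0.516. The epithelial marker list (Epcam, Cdh1, Krt8, Krt18, Krt20, Vil1 and Lgals4) summed to 9079 to 19781 CPM in every library, and all of its genes were detected in each group. A small intestine list (Fabp6, Apoa1, Apoa4, Lct and Sis) summed to 154 CPM in d0_KO_60 and 46.3 CPM in d0_KO_53. It was at 7.75 to 11.5 CPM in the other KO day 0 libraries and at 2.52 to 7.67 CPM in WT day 0. The library d0_KO_60 held the highest KO day 0 level of 4 of the 10 genes. The part of gut region in the day 0 comparisons was not tested. These are bulk samples, in which a change in the number of cells of a type and a change in RNA per cell cannot be told apart.

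Hk2 (ENSMUSG00000000628), the targeted gene, was at 247, 280, 382 and 439 CPM in the WT day 0 libraries and at 31.2 to 111 CPM in the KO day 0 libraries, without overlap. On day 3 WT libraries held 99.3 to 224 CPM. KO libraries of that day held 70.9 to 131 CPM, except that the library labelled d3_KO_345 was at 440 CPM, above every WT library of its day. On day 7 the range was 231 to 598 CPM in WT and 56.6 to 260 CPM in KO. The level of Hk2 in d3_KO_345 thus goes against its label. Markers of neutrophils also set single libraries apart. The summed neutrophil markers (S100a8, S100a9, Csf3r, Cxcr2, Retnlg, Mmp8 and Mmp9) stood at 39.9 CPM in d3_KO_345 and at most 3.22 CPM in the other KO day 3 libraries. They stood at 1413 CPM in the library labelled d7_KO_420 and at 33.4 to 219 CPM in the other KO day 7 libraries. In WT day 7 they stood at 769 CPM in d7_WT_356, at 921 CPM in d7_WT_419 and at 84.8 to 163 CPM in the others. The fits on KO mice that hold d3_KO_345 or d7_KO_420 were therefore repeated without them. The genotype and interaction fits without d7_KO_420 kept d7_WT_356 and d7_WT_419, so that this removal was from KO only.

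**Figure D1:**
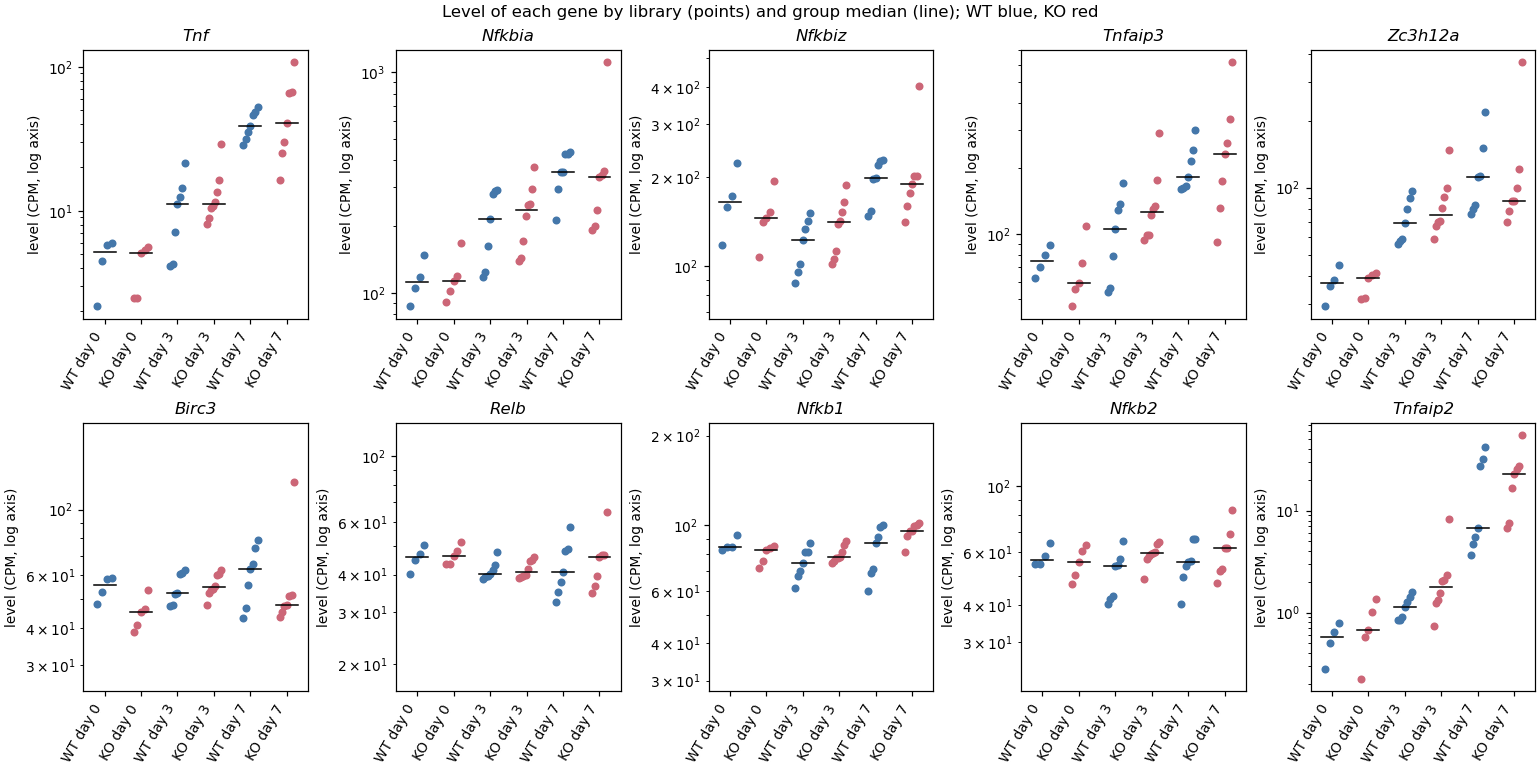
Level of each of the 10 genes in every library, in TMM-scaled CPM on a log axis, by group; points are libraries, ordered by value within a group, blue for WT and red for KO, and the line is the group median. Tnf and Tnfaip2 climb over the days in both genotypes, with 1 KO day 7 library (d7_KO_420) far above the others for Nfkbia, Zc3h12a and Birc3, whereas Relb, Nfkb1 and Nfkb2 stay within a narrow range.

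Per kilobase of exon, the order of the 10 genes before colitis ran from the IκBα gene to Tnfaip2. In WT day 0 libraries Nfkbia stood at 72.6 ± 16.4 CPM per kb (mean ± SD, n = 4) and Nfkbiz at 33.4 ± 8.61 CPM per kb. Nfkb2 followed at 17.6 ± 1.39 CPM per kb. Zc3h12a, Relb, Birc3 and Tnfaip3 lay between 10.5 and 12.9 CPM per kb, and none of these neighbours differed from the next by more than its SD. Nfkb1 was at 7.13 ± 0.386, Tnf at 2.80 ± 1.07 and Tnfaip2 at 0.111 ± 0.0431 CPM per kb. The levels therefore spanned an abundant inhibitor and a ligand near the bottom of the list. By day 7 Nfkbia had the highest mean in WT (226 ± 51.2 CPM per kb). Zc3h12a (41.3 ± 17.8), Nfkbiz (39.0 ± 6.62), Tnfaip3 (28.4 ± 7.26) and Tnf (24.5 ± 5.53) followed in that order. The means of Zc3h12a and Nfkbiz, and of Tnfaip3 and Tnf, lay closer than their SD, which ignores that the genes share libraries. Zc3h12a was above Nfkbiz in d7_WT_356 (76.0 against 43.7 CPM per kb) and d7_WT_361 (52.3 against 39.4), but not in the other WT day 7 libraries. Nfkbia was first and Tnfaip2 last in each of the 6 groups. Tnf moved from rank 9 on day 0 to rank 5 on day 7 in both genotypes.

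The change from day 3 to day 7 of DSS lay within 1 library series and gave the course of these genes through colitis. In WT mice 6 of the 10 genes rose: the ligand gene Tnf, the IκB family genes Nfkbia and Nfkbiz, the negative regulators Tnfaip3 and Zc3h12a, and Tnfaip2. The 3 transcription factor subunit genes and Birc3 were not called in either direction. In KO mice Tnf, Nfkbiz, Tnfaip2 and Nfkb1 rose. Among all genes tested, 10.6% were called higher in WT and 10.5% in KO, by edgeR's quasi-likelihood test at a Benjamini-Hochberg adjusted p under 0.05. The median log2 fold change of the 10 genes was 0.73 in WT and 0.61 in KO, against 0.013 and -0.0067 over all genes tested. The KO median included d7_KO_420, without which Nfkbia was at 0.26, Nfkbiz at 0.36 and Tnfaip3 at 0.52 in KO. Zc3h12a and Birc3 were lower without it as well, and Nfkb1 was slightly higher, as given below. The median of the 10 genes was not taken without that library.

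Tnf (ENSMUSG00000024401, chr17:35199381-35202007), whose product is the ligand that starts the pathway from outside the cell, was at 2.17, 4.47, 5.82 and 5.93 CPM in WT and at 2.46, 2.47, 5.11, 5.32 and 5.58 CPM in KO before colitis. In WT libraries it ran from 4.15 through a median of 11.2 to 21.3 CPM on day 3 and from 28.7 through 38.9 to 52.5 CPM on day 7. Every WT day 7 library was thus above every WT day 3 library, and the log2 fold change was 1.92 ± 0.32 (SE; adjusted p = 0.000725). KO libraries ran from 8.03 through 11.2 to 28.9 CPM on day 3 and from 16.4 through 40.4 to 108 CPM on day 7, so the groups overlapped, the highest day 3 value being that of d3_KO_345 and the highest day 7 value that of d7_KO_420. The log2 fold change in KO was 1.89 ± 0.37 (adjusted p = 0.00178) and 1.84 ± 0.30 without both libraries.

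Nfkbia (ENSMUSG00000021025, chr12:55489411-55492647) encodes IκBα, the inhibitor that retains NF-κB in the cytoplasm and whose promoter sequence is printed above. It was at 86.8, 105, 118 and 148 CPM in WT and at 90.9, 102, 114, 119 and 169 CPM in KO on day 0. WT values ran from 118 through 216 to 291 CPM on day 3 and from 214 through 354 to 434 CPM on day 7. The days overlapped in WT, and the rise was 0.77 ± 0.23 on the log2 scale (adjusted p = 0.0257). It lost its call without d7_WT_419 (0.72, adjusted p = 0.0512). KO values ran from 139 through 237 to 370 CPM on day 3 and from 192 through 335 to 1110 CPM on day 7. The log2 fold change in KO was 0.79 ± 0.35 (adjusted p = 0.136) and, without d7_KO_420, the library at 1110 CPM, 0.26 ± 0.23 (adjusted p = 0.446).

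Nfkbiz (ENSMUSG00000035356, chr16:55811375-55838899) encodes IκBζ, a nuclear member of the family that can also activate a subset of target genes. Its day 0 levels were 118, 158, 172 and 223 CPM in WT and 107, 141, 145, 153 and 194 CPM in KO. In WT it ran from 88.2 through 123 to 151 CPM on day 3 and from 147 through 198 to 228 CPM on day 7, so that the groups overlapped only at their edges. The rise was 0.73 ± 0.14 (adjusted p = 0.00234). In KO the ranges were 102 to 187 CPM (median 141) and 141 to 404 CPM (median 189), and the rise was 0.61 ± 0.20 (adjusted p = 0.0441). This call in KO remained in 3 of 16 fits that left out a library or both d3_KO_345 and d7_KO_420. It was lost without d3_KO_345, d3_KO_349, d3_KO_351, d3_KO_385, d3_KO_387, d3_KO_388, d3_KO_392, d7_KO_368, d7_KO_420, d7_KO_421, d7_KO_422 or d7_KO_423, where the fold change was 0.36 (without d7_KO_420) to 0.65.

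Tnfaip3 (ENSMUSG00000019850, chr10:19000910-19015657) encodes A20, which removes activating ubiquitin chains from signalling proteins below the TNF receptor. It was at 62.4, 70.5, 80.0 and 89.3 CPM in WT and at 46.4, 55.9, 59.2, 73.1 and 109 CPM in KO on day 0. In WT it ran from 53.8 through 105 to 170 CPM on day 3 and from 160 through 183 to 300 CPM on day 7, with little overlap. The rise was 0.99 ± 0.25 (adjusted p = 0.0108). In KO it ran from 93.5 through 126 to 292 CPM on day 3, highest in d3_KO_345, and from 91.4 through 233 to 616 CPM on day 7, highest in d7_KO_420. The log2 fold change was 0.89 ± 0.35 (adjusted p = 0.0945), which passed the threshold without d3_KO_345 (1.12, adjusted p = 0.0255), without d7_KO_366 (1.04, adjusted p = 0.0376) and without both d3_KO_345 and d7_KO_420 (0.75, adjusted p = 0.0414). Without d7_KO_420 alone it was 0.52 (adjusted p = 0.242).

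Zc3h12a (ENSMUSG00000042677, chr4:125118423-125127840) encodes regnase-1, a ribonuclease that degrades mRNAs of inflammatory genes. Before colitis it was at 29.3, 36.1, 38.5 and 44.7 CPM in WT and at 31.7, 31.8, 39.1, 40.5 and 41.3 CPM in KO. WT libraries ran from 55.8 through 69.7 to 96.3 CPM on day 3 and from 76.1 through 111 to 219 CPM on day 7. These ranges overlapped and the rise was 0.73 ± 0.22 (adjusted p = 0.0318). It lost its call in turn without d3_WT_346, d3_WT_381, d3_WT_486, d3_WT_487, d7_WT_356 or d7_WT_361 (0.51 to 0.72, the lowest without d7_WT_356; adjusted p = 0.0510 to 0.0670). KO libraries ran from 58.6 through 75.6 to 147 CPM on day 3 and from 70.1 through 86.7 to 366.9 CPM on day 7. In KO the log2 fold change was 0.61 ± 0.33 (adjusted p = 0.230) and, without d7_KO_420, 0.08 ± 0.19 (adjusted p = 0.802).

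Birc3 (ENSMUSG00000032000, chr9:7848699-7873186) encodes cIAP2, a ubiquitin ligase of the TNF receptor complex that helps cells survive TNF. On day 0 it was at 48.1, 52.99, 58.5 and 58.7 CPM in WT and at 38.8, 41.03, 45.3, 46.3 and 53.8 CPM in KO. WT libraries ran from 47.3 to 62.8 CPM on day 3 and from 43.3 to 79.2 CPM on day 7, and the day 7 range enclosed that of day 3. In WT the log2 fold change was 0.17 ± 0.13 (adjusted p = 0.390). KO libraries ran from 47.7 to 62.8 CPM on day 3 and from 43.6 to 51.5 CPM on day 7, apart from d7_KO_420 at 123 CPM. With all libraries it was 0.07 ± 0.19 (adjusted p = 0.853). Without d7_KO_420 Birc3 was called lower, at -0.23 ± 0.07 (adjusted p = 0.0217), and it was -0.23 (adjusted p = 0.0243) without d3_KO_345 as well. The share of all genes called lower was 8.83% with all libraries, 11.2% without d7_KO_420 and 14% without both.

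Of the subunit genes, only Nfkb1 was called between day 3 and day 7, and only in KO. Relb (ENSMUSG00000002983, chr7:19606217-19629438) encodes the partner of p52 in the non-canonical arm of the pathway. It was at 40.2, 44.8, 46.8 and 50.1 CPM in WT and at 43.4, 43.6, 46.3, 48.2 and 51.5 CPM in KO on day 0, and at 32.3 to 65.0 CPM in all later libraries. Its log2 fold change from day 3 to day 7 was 0.07 ± 0.11 in WT (adjusted p = 0.734) and 0.11 ± 0.11 in KO (adjusted p = 0.559), or -0.01 ± 0.08 without d3_KO_345 and d7_KO_420.

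Nfkb1 (ENSMUSG00000028163, chr3:135584655-135691547) encodes p105, the precursor of the p50 subunit. Its day 0 levels were 82.5, 84.2, 84.2 and 92.8 CPM in WT and 71.9, 75.6, 82.2, 83.7 and 85.2 CPM in KO. In KO it ran from 74.4 through 78.1 to 88.5 CPM on day 3 and from 81.0 through 95.5 to 102 CPM on day 7, where the lowest library was d7_KO_420. The other 6 day 7 libraries were all above the day 3 range. The rise in KO was 0.25 ± 0.06 (adjusted p = 0.00406), kept its call in all 16 fits that left libraries out, and was 0.28 without d7_KO_420. In WT the ranges were 61.5 to 87.3 CPM and 59.97 to 99.8 CPM, and the log2 fold change was 0.15 ± 0.12 (adjusted p = 0.400). A further annotated locus, Gm43430, overlaps Nfkb1 on the same strand, so reads in the overlap cannot be assigned with certainty.

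Nfkb2 (ENSMUSG00000025225, chr19:46304737-46312090) encodes p100, which acts as an inhibitor until it is cut to p52. It was at 54.7, 54.7, 58.3 and 64.4 CPM in WT and at 47.0, 50.3, 55.8, 60.9 and 63.3 CPM in KO on day 0, and at 40.1 to 83.5 CPM in all later libraries. The log2 fold change from day 3 to day 7 was 0.14 ± 0.13 in WT (adjusted p = 0.490) and 0.06 ± 0.11 in KO (adjusted p = 0.775), or -0.02 ± 0.09 without d3_KO_345 and d7_KO_420. The counting ignored strand, so reads from genes that overlap Nfkb2 on the other strand (Psd and a long non-coding RNA) cannot be told apart from its own.

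Tnfaip2 (ENSMUSG00000021281, chr12:111442469-111455018), first found as a gene induced by TNF, encodes a protein linked to membrane protrusions. It was the lowest of the 10 before colitis, at 0.280, 0.501, 0.646 and 0.783 CPM in WT (4 to 39 counts) and at 0.222, 0.572, 0.667, 1.02 and 1.37 CPM in KO (2 to 15 counts), so that day 0 levels rest on few counts. WT libraries ran from 0.836 through 1.14 to 1.595 CPM on day 3 and from 3.63 through 6.74 to 42.2 CPM on day 7. The WT groups did not overlap, and the rise of 3.96 ± 0.58 (adjusted p = 0.000265) was the greatest of the 10. Within WT day 7, 4 libraries stood at 3.63 to 6.74 CPM and 3 at 27.7, 32.3 and 42.2 CPM. KO libraries ran from 0.742 through 1.78 to 8.28 CPM on day 3 and from 6.78 through 22.7 to 55.2 CPM on day 7. The KO groups overlapped by d3_KO_345 at 8.28 CPM, and the rise was 3.24 ± 0.53 (adjusted p = 0.000485), or 3.82 ± 0.47 without d3_KO_345 and d7_KO_420. An antisense gene overlaps Tnfaip2, and its reads were not separated.

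**Figure D2:**
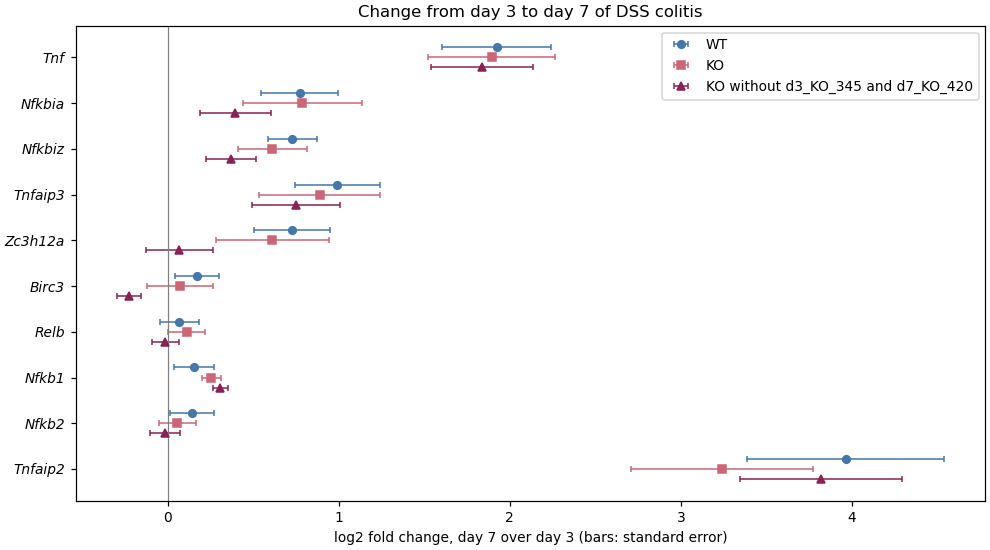
Log2 fold change from day 3 to day 7 of DSS for each gene in WT (blue circles), KO (red squares) and KO without d3_KO_345 and d7_KO_420 (purple triangles); bars are standard errors and the grey line marks no change. Tnfaip2 and Tnf lie farthest to the right in each set, while Zc3h12a in KO moves from 0.61 to 0.07 and Birc3 from 0.07 to -0.23 when the libraries are left out.

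The WT ranges of day 3 and day 7 did not overlap for 2 of the 10 genes, Tnf and Tnfaip2, against 2.7% of all genes tested being higher without overlap. In KO 0 of the 10 genes were free of overlap, against 2.6% of all genes. For Tnf and Tnfaip2 the KO overlap came from d3_KO_345 alone. Their next highest KO day 3 values, 16.42 and 2.34 CPM, were below the lowest KO day 7 values of 16.45 and 6.78 CPM. The share of all genes without that library was not taken. The difference between the genotypes in the change from day 3 to day 7 was tested as an interaction. None of the 10 genes was called, the interaction log2 values ranging from -0.71 ± 0.77 for Tnfaip2 to 0.12 ± 0.13 for Nfkb1 (adjusted p = 0.9999 for each). That test called 0% of all genes (0 by the DESeq2 Wald test as well), and 440 of the 16371 genes tested had an unadjusted p under 0.05. Without d7_KO_420 that number was 1333 of 16500, again with 0 genes called. In that fit the interaction was -0.63 ± 0.31 for Zc3h12a (-0.11 with all libraries), -0.38 ± 0.15 for Birc3 (-0.08) and -0.35 ± 0.20 for Nfkbiz (-0.10), with adjusted p = 0.615, 0.554 and 0.681. The calls of Nfkbia, Tnfaip3 and Zc3h12a in WT alone, and of Nfkb1 in KO alone, are therefore not shown to differ between genotypes.

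The markers of immune cells moved with the day. The neutrophil sum was 0.108 to 1.37 CPM in WT day 3 and 84.8 to 921 CPM in WT day 7 libraries. The monocyte and macrophage sum (7 genes, among them Csf1r, Adgre1 and Lyz2) was 34.7 to 43.4 CPM in WT day 3 and 79.9 to 360.8 CPM in WT day 7. In KO it was 32.3 to 48.6 CPM on day 3, with d3_KO_345 at 140 CPM, and 83.8 to 405 CPM on day 7. The leukocyte sum (Ptprc, Coro1a, Laptm5 and Cd53) went from 7.84 to 43.5 CPM in WT day 3 to 43.8 to 233 CPM in WT day 7, and from 27.7 to 59.99 CPM to 73.0 to 193 CPM in KO. Every gene of these 3 lists was detected in each group. The part of these cells in the rise of the 10 genes and of the pathway genes below was not tested.

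Within day 7 the relation of each gene to 5 immune marker sums was computed in each genotype, 100 relations in all, with exact two-sided permutation tests over 7 libraries. After Benjamini-Hochberg adjustment 0 relations passed by Spearman's rho, for which 7 libraries leave little room to pass among 100 relations. By Pearson's r 1 relation passed. It was that of Tnfaip2 with the leukocyte sum in WT, where the 3 libraries with high Tnfaip2 held leukocyte sums of 114, 172 and 233 CPM and the other 4 held 43.8 to 84.2 CPM. There r was 0.952 (exact permutation p = 0.000397, adjusted p = 0.0397) and rho was 0.964 (exact permutation p = 0.00278, adjusted p = 0.225). Without d7_WT_356 and d7_WT_419, the libraries farthest from the median, r was 0.881. The Tnfaip2 levels fell into separate sets, whereas the leukocyte sums were graded. The relation within the sets was not tested. In KO the same pair gave r = 0.837 (exact permutation p = 0.0190, adjusted p = 0.635) and rho = 0.929 (exact permutation p = 0.00675, adjusted p = 0.225), with r = 0.804 without d7_KO_420 and d7_KO_423, the libraries farthest from the median. The library with the highest neutrophil sum, d7_KO_420, held the highest KO day 7 level of 8 of the 10 genes and the lowest level of Nfkb1. Tnfaip2 was instead highest in d7_KO_422, at 55.2 CPM with a neutrophil sum of 219 CPM. In WT day 7 the library with the highest neutrophil sum, d7_WT_419, held the highest level of 6 of the 10 genes and the lowest of 0.

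**Figure D3:**
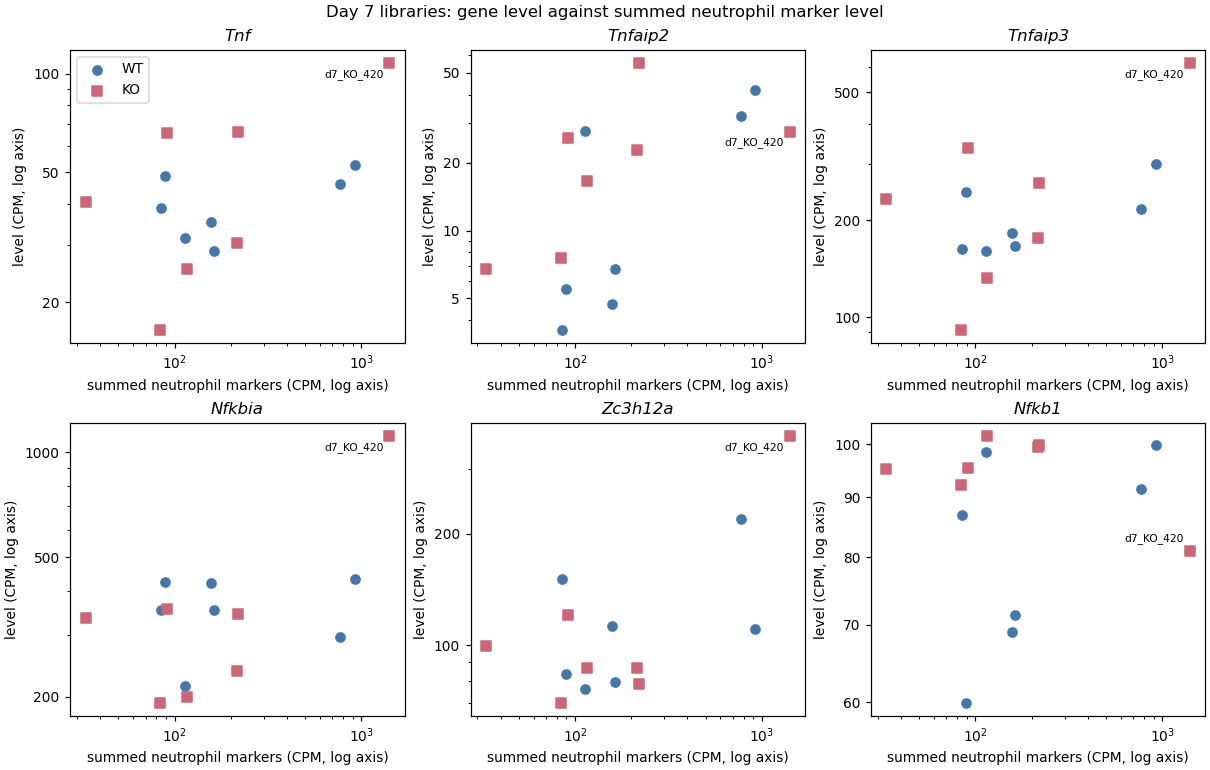
Level of 6 of the genes (CPM, log axis) against the summed neutrophil markers (CPM, log axis) in the 14 day 7 libraries, WT as blue circles and KO as red squares. The library d7_KO_420, at 1413 CPM of neutrophil markers, is the highest point for Tnf, Tnfaip3, Nfkbia and Zc3h12a, is not the highest for Tnfaip2, and is the lowest KO point for Nfkb1.

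Genes whose levels followed those of the 10 genes most closely among day 7 libraries were sought by Pearson correlation with their mean log2 CPM, after the mean of each genotype was subtracted. Over 14 libraries and 10855 genes these were Pitpnm1 (0.954), Rnf24 (0.950), Arid3b (0.947), Sgms1 (0.939) and Zswim4 (0.933). Without d7_KO_420 the values were 0.921, 0.888, 0.897, 0.868 and 0.865 in the same order. Of the 10 genes themselves, which make up that mean, Tnfaip3 (0.921) and Tnf (0.909) were closest to it and Nfkb1 (0.034) the farthest, Nfkb1 being at 0.425 without d7_KO_420. These libraries share animals, depth and composition with the mean they are compared to, and the values are a description.

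Deletion of Hk2 in the epithelium was compared with littermate controls on each day, and none of the 10 genes passed the test on any day. By the same test Hk2 itself was called on day 0 (-2.20 ± 0.30, adjusted p = 0.0331). It was not called on day 3 (-0.27 ± 0.33, adjusted p = 0.802) or on day 7 (-1.25 ± 0.30, adjusted p = 0.291). The lack of a call on these days is therefore not evidence of no difference. On day 0, 0 of the 10 genes were called, against 0.0335% of all genes tested. On day 3 none was called against 0.00647%, and on day 7 none against 0.00642%. The DESeq2 Wald test also called 0 of the 10 on each day. At an unadjusted p under 0.05 the numbers were 1, 1 and 0 of the 10 genes, against 10.5%, 7.88% and 12.9% of all genes tested.

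On day 0 the log2 fold changes of KO over WT ranged from -0.24 to 0.43 with SE of 0.084 to 0.44, and 4 of the 10 were positive. The lowest was Birc3, at -0.24 ± 0.11 (adjusted p = 0.462), whose KO libraries lay at 38.8 to 53.8 CPM against 48.1 to 58.7 CPM in WT. On day 3 all 10 estimates were positive, from 0.01 for Relb to 1.10 ± 0.42 for Tnfaip2 (adjusted p = 0.623). Without d3_KO_345 Tnfaip2 was at 0.49 ± 0.25 (adjusted p = 0.770), Tnf went from 0.34 to 0.09 and Tnfaip3 from 0.45 to 0.22. Nfkbia went from 0.12 to -0.01. On day 7 the estimates ranged from -0.06 to 0.40 and 9 of the 10 were positive, among them Tnf at 0.33 ± 0.33 (adjusted p = 0.677) and Tnfaip3 at 0.37 ± 0.33 (adjusted p = 0.634). Without d7_KO_420 Tnf was at 0.01 and Tnfaip3 at -0.01, while Nfkbia was at -0.37 ± 0.19 (adjusted p = 0.246), Zc3h12a at -0.40 ± 0.23 (adjusted p = 0.296) and Birc3 at -0.36 ± 0.12 (adjusted p = 0.113). The sign of the genotype difference in Nfkbia, Nfkbiz, Tnfaip3, Zc3h12a and Relb on day 7 thus rested on 1 library. The fit without d7_KO_420 still held d7_WT_356 and d7_WT_419, the WT libraries with the highest neutrophil sums.

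**Figure D4:**
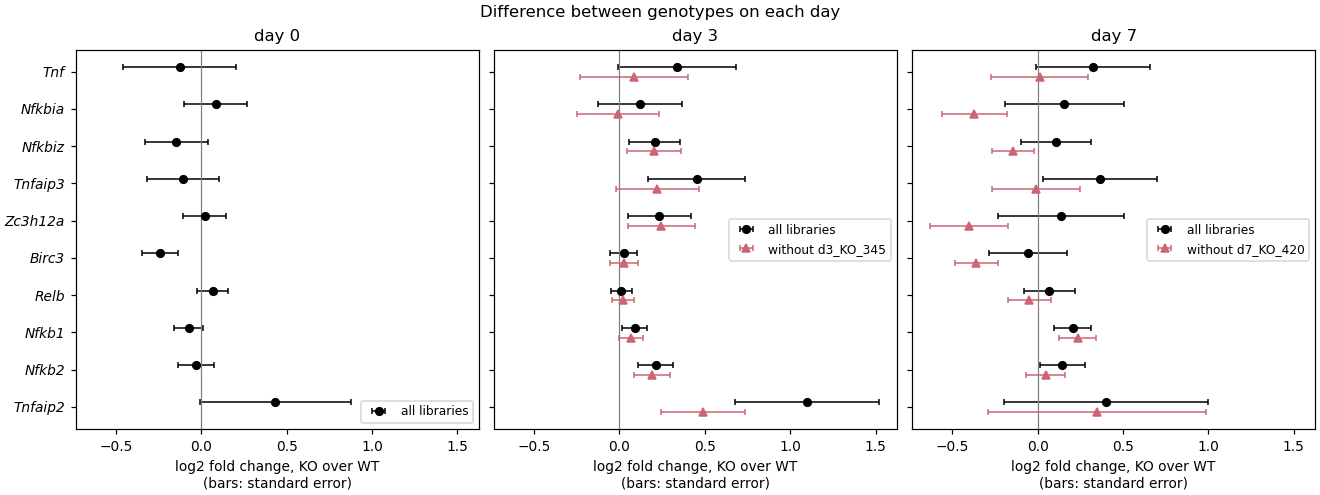
Log2 fold change of KO over WT for each gene on days 0, 3 and 7, with all libraries (black circles) and without d3_KO_345 on day 3 or d7_KO_420 on day 7 (red triangles); bars are standard errors and the grey line marks no difference. No gene passed the threshold on any day, and on day 7 Nfkbia, Zc3h12a and Birc3 lie at -0.37, -0.40 and -0.36 once d7_KO_420 is left out. The neutrophil-rich WT libraries d7_WT_356 and d7_WT_419 are kept there.

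Against day 0, Tnf, Nfkbia, Tnfaip3, Zc3h12a and Tnfaip2 stood higher on day 7 in both genotypes. These comparisons share the day 0 libraries of each genotype, and day 0 belongs to another library series. In WT 5 of the 10 genes were called higher on day 7 than on day 0, against 27.8% of all genes tested: Tnf (3.03 ± 0.27), Nfkbia (1.57 ± 0.20), Tnfaip3 (1.37 ± 0.19), Zc3h12a (1.61 ± 0.29) and Tnfaip2 (4.83 ± 0.88). In KO the same 5 genes were called, against 27.3%: Tnf at 3.49 ± 0.49, Nfkbia at 1.63 ± 0.42, Tnfaip3 at 1.83 ± 0.42, Zc3h12a at 1.71 ± 0.40 and Tnfaip2 at 4.80 ± 0.62. None of the 10 was called lower, against 29.2% of all genes in WT and 27.3% in KO. Calls in either direction thus covered 5 of the 10 in each genotype, against 56.9% of all genes in WT and 54.6% in KO. Without d7_KO_420 these 5 kept their calls (Nfkbia at 1.10, Zc3h12a at 1.17), Relb was called lower (-0.28, adjusted p = 0.0156) and Nfkb1 higher (0.17, adjusted p = 0.0315). That fit called 30.4% of all genes higher and 31.2% lower.

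By day 3 part of this difference from day 0 was present. In WT Nfkbia (0.79 ± 0.27), Zc3h12a (0.87 ± 0.17) and Tnfaip2 (0.89 ± 0.31) had risen, 3 of the 10 genes against 20.4% of all genes tested. Nfkbiz (-0.58 ± 0.18) and Nfkb1 (-0.29 ± 0.10) had fallen, 2 of the 10 against 25.6%. Tnf in WT was at 1.11 ± 0.44 (adjusted p = 0.0524). The calls of Nfkbia (without d0_WT_41, d0_WT_43 or d0_WT_46), Nfkbiz (without d0_WT_46), Nfkb1 (without d0_WT_31, d0_WT_41 or d0_WT_43) and Tnfaip2 (without d0_WT_41 or d0_WT_43) were each lost when a day 0 library was left out. The fold changes in those fits were 0.68 to 0.80 for Nfkbia, -0.43 for Nfkbiz, -0.30 to -0.23 for Nfkb1 and 0.71 to 0.85 for Tnfaip2. The call of Zc3h12a was not lost in these fits. Under the alternatives that kept all libraries, 4 results of single genes lost a call in this comparison and 7 gained one. Relb was called lower without d0_WT_43 (-0.28, adjusted p = 0.0358). With all libraries 5 of the 10 genes were called in either direction, against 46% of all genes. In the absence of d0_WT_41 it was 2, against 37.1%. It was 3 without d0_WT_43 (38.8%) and 3 without d0_WT_46 (35.3%).

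In KO Tnf (1.59 ± 0.33), Nfkbia (0.84 ± 0.23), Tnfaip3 (0.94 ± 0.28), Zc3h12a (1.09 ± 0.19) and Tnfaip2 (1.56 ± 0.60) were higher on day 3 than on day 0, 5 of the 10 genes against 22.6% of all genes tested. Relb (-0.28 ± 0.07) was lower, 1 of the 10 against 23.7%. The call of Tnfaip2 was lost without d3_KO_345 (0.93, adjusted p = 0.0523) and without d0_KO_24, d0_KO_32, d0_KO_53 or d0_KO_60 (1.39 to 1.67). Birc3 was called higher (0.25, adjusted p = 0.0343) without d0_KO_24, in a fit that called 19.5% of all genes higher.

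A list of 44 further genes of TNF receptor and NF-κB signalling covered receptors, adaptors, kinases, subunits and inhibitors. From day 3 to day 7 in WT 13 of the 44 rose, against 10.6% of all genes tested, and 0 fell, against 8.7%. The median log2 fold change was 0.18 against 0.013 over all genes tested. In KO 11 rose, against 10.5%, and 1 fell, against 8.83%, with a median of 0.18 against -0.0067. Without d3_KO_345 and d7_KO_420 16 of the list rose and 2 fell, against 14.5% and 14% of all genes, with a median of 0.13. Between genotypes 0 of the list were called on days 0, 3 and 7. By edgeR's test 4 of the 42, 43 and 44 genes tested had an unadjusted p under 0.05 on days 0, 3 and 7, against 10.5%, 7.88% and 12.9% of all genes. Without d3_KO_345 this was 0 on day 3, against 6.06%, and without d7_KO_420 it was 9 on day 7, against 23.7%.

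Among receptors and ligands, Tnfrsf1b, the second TNF receptor, went from 19.2 to 92.4 CPM on day 3 to 43.2 to 122 CPM on day 7 in WT, ranges that overlapped, with a rise of 1.01 ± 0.32 (adjusted p = 0.0374). This call was lost without any 1 of d3_WT_348, d3_WT_352, d3_WT_353, d3_WT_381, d3_WT_486, d3_WT_487, d7_WT_356, d7_WT_370, d7_WT_393 or d7_WT_419 (0.83 to 1.03, adjusted p = 0.0517 to 0.0882). In KO its rise was 0.99 ± 0.25 (adjusted p = 0.0110), or 1.14 ± 0.19 without d3_KO_345 and d7_KO_420. Ltb, which encodes lymphotoxin β, a TNF family ligand, rose by 1.07 ± 0.26 in WT (adjusted p = 0.00858) and by 0.86 ± 0.17 in KO (adjusted p = 0.00202; 0.77 without both libraries), at levels of 0.748 to 3.87 CPM. Tnfrsf11a, the receptor RANK, was the gene that fell in KO, from 113 ± 11.5 CPM (SD, n = 8) to 85.9 ± 6.47 CPM (SD, n = 7). Its log2 fold change was -0.39 ± 0.07 in KO (adjusted p = 0.000812), the same to 2 decimals without both libraries. In WT it was -0.28 ± 0.11 (adjusted p = 0.0996), and called without d3_WT_381 (-0.35, adjusted p = 0.0221).

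Among inhibitors and subunits, Nfkbie, which encodes IκBε, went from 2.99 to 4.20 CPM on day 3 to 4.82 to 11.9 CPM on day 7 in WT, without overlap, a rise of 1.04 ± 0.21 (adjusted p = 0.00287). In KO it rose by 0.98 ± 0.22 (adjusted p = 0.00417), or 0.94 without both libraries. Tnip3, an A20-binding inhibitor, rose in WT from 21.2 ± 7.06 to 47.5 ± 15.4 CPM (SD, n = 7 each; 1.18 ± 0.22, adjusted p = 0.00187). In KO its log2 fold change was 0.34 ± 0.34 (adjusted p = 0.556), or 0.53 ± 0.24 without both libraries (adjusted p = 0.120), and its interaction was not called (-0.82 ± 0.43, adjusted p = 0.9999).

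Rel, which encodes the subunit c-Rel, rose by 0.91 ± 0.24 in WT (adjusted p = 0.0153) and by 0.77 ± 0.24 in KO (adjusted p = 0.0327). In KO it was 0.43 ± 0.13 without d7_KO_420 (adjusted p = 0.0300) and 0.51 ± 0.12 without both libraries (adjusted p = 0.00460), and the call was lost without any 1 of d3_KO_349, d3_KO_350, d3_KO_351, d3_KO_385, d3_KO_387, d3_KO_388 or d3_KO_392 (0.73 to 0.78). Tax1bp1, an adaptor of A20, rose in KO by 0.44 ± 0.12 (adjusted p = 0.0157; 0.30 without both libraries) and in WT by 0.44 ± 0.13 (adjusted p = 0.0262). The WT call was lost without any 1 of d3_WT_348, d3_WT_353, d7_WT_356, d7_WT_361 or d7_WT_419 (0.39 to 0.43). Cd40, a receptor of the TNF family, had the greatest change of the list (3.41 ± 0.61 in WT, adjusted p = 0.00134, and 3.31 ± 0.55 in KO, adjusted p = 0.000488, or 3.84 without both libraries). It was named after its values were seen, since its mean level was below the minimum used for naming genes.

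**Figure D5:**
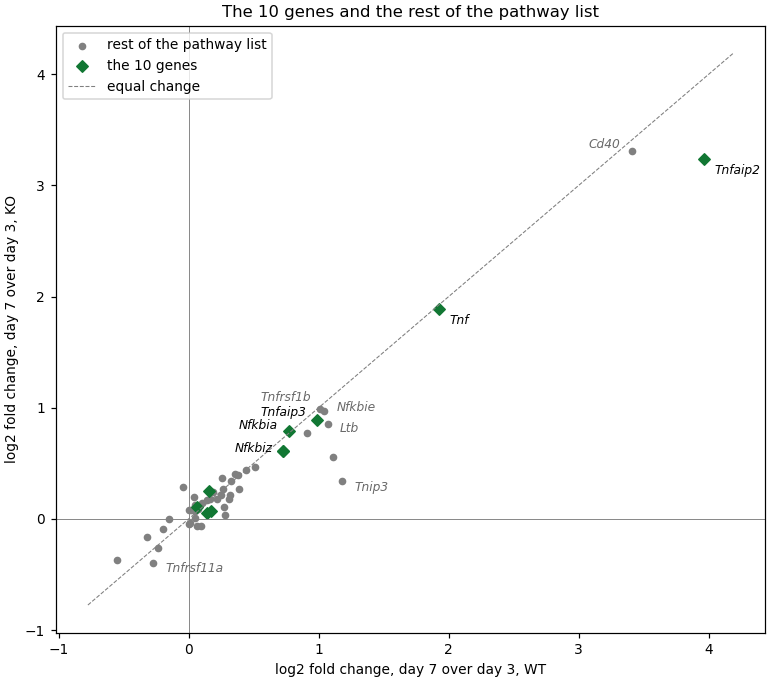
Log2 fold change from day 3 to day 7 in KO (vertical) against WT (horizontal) for the 10 genes (green diamonds) and the 44 further genes of the pathway list (grey circles); the dashed line marks equal change. Tnfaip2 and Cd40 lie farthest from zero in both genotypes, followed by Tnf, and Tnfrsf11a lies below zero.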

How the data were processed

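The authors deposited raw counts per gene for 2 lanes of each library, made with featureCounts 1.6.2 per the file headers (1.5.2 per the submitters' processing notes), with the strand of reads ignored although the labels name a stranded kit. Trim Galore, STAR and the GRCm38 build are given in the submitters' processing notes, without versions. The lane counts were summed here (correlation of log counts between lanes at least 0.989). Coordinates are those of the files, and overlapping genes are from GENCODE M21.

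Groups follow the genotype and day in the titles. Each comparison was fitted on its own groups in R 4.3.3 by the quasi-likelihood method of edgeR 4.0.16, after TMM scaling and edgeR's group-wise filter for low counts, with Benjamini-Hochberg adjustment over all genes tested and a threshold of 0.05. Values after ± are standard errors for log2 fold changes and SD for levels. The standard errors were derived from the edgeR test, as the absolute log2 fold change over the square root of its F statistic. P-values measure the spread between these animals. The fits were tested on simulated data: of 200 genes changed 2-fold between day 3 and day 7 in WT, 68% were called. False calls made up 4.23% of the calls in that run and 6.93% with 4-fold changes. With 2-fold changes between genotypes they made up 8.05% on day 7 and 6.85% on day 0. Except in the first run, these shares are above the rate that the threshold aims at.

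The genes and lists were chosen with earlier results of these data known. Named were all 10 genes, Hk2 and, from the pathway list, up to 5 called genes in each direction with the greatest change and a mean log2 CPM of at least 0. The alternatives tried were the Wald test of DESeq2 1.42.0, its size factors inside edgeR, keeping every gene, a minimum mean CPM of 1, the first lane only, 1 model over all 38 libraries, and leaving out libraries. Fits without d7_KO_420 against day 0 and in the interaction, and without both d3_KO_345 and d7_KO_420, and the alternatives for the pathway list, were added after the data were seen.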

Additional observations from a re-analysis of the deposited data

Results flagged for a closer look

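In groups of 4 to 8 libraries, a library was singled out when its gap to the nearest of the others was large against the whole range of its group (Dixon's criterion at 95%). This marked 13 values among 66 groups, where chance marks about 1 in 20 groups if the levels are normally distributed. The rule was applied to CPM without a log scale, and whether that condition holds was not tested. The groups also share libraries and are not independent. The library d7_KO_420 gave 5 of them, with Nfkbia at 1110 CPM, Nfkbiz at 404 CPM, Zc3h12a at 366.9 CPM, Birc3 at 123 CPM and Relb at 65.0 CPM. Each of these was the highest KO day 7 value, the next highest being 355.8, 201, 121, 51.5 and 46.7 CPM.

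The library d3_KO_345 gave 4, with Tnf at 28.9 CPM, Tnfaip3 at 292 CPM, Tnfaip2 at 8.28 CPM and Hk2 at 440 CPM. The next highest KO day 3 values were 16.4, 176, 2.34 and 131 CPM. The other 4 values came from different libraries. Zc3h12a was at 147 CPM in d3_KO_350 against at most 99.3 CPM in the other KO day 3 libraries. Tnfaip2 was at 55.2 CPM in d7_KO_422 against at most 27.4 CPM in the other KO day 7 libraries. Nfkb1 was at 92.8 CPM in d0_WT_41 against at most 84.2 CPM in the other WT day 0 libraries. Hk2 was at 598 CPM in d7_WT_356 against at most 318 CPM in the other WT day 7 libraries. No cause of these values was tested.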

How the results depend on the processing

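Of the log2 fold changes of single genes under the alternatives, 1379 kept their direction and side of the threshold, 54 changed sign, 43 lost a call and 22 gained one, 2 of these 22 with a change of sign. Where not stated otherwise the cause was not tested. The DESeq2 Wald test called 177, 2 and 83 genes of all tested for KO against WT on days 0, 3 and 7, where edgeR called 5, 1 and 1. Without a filter it was 52 on day 0 and 2 on day 7, with a mean CPM of at least 1 it was 0 on days 3 and 7, and in 1 fit of all libraries it was 38 on day 7. With lane 1 alone Birc3 was at -0.014 and Relb at -0.0064 on day 3. Nfkb2 in KO was at 0.036 for day 3 over day 0 without a filter, and for day 7 over day 0 at -0.012 with a mean CPM of at least 1 and -0.0073 with lane 1 alone.

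Leaving out libraries gave the following lowest and highest values. Genes called between genotypes were 0 to 37 on day 0, 0 to 1 on day 3 and 1 to 2 on day 7, and 2 to 4 of the 10 genes were called for day 3 over day 0 in WT. For KO over WT on day 0, Tnf ran from -0.34 to 0.024, Nfkbia from -0.076 to 0.23, Nfkbiz from -0.28 to 0.020, Tnfaip3 from -0.33 to 0.013, Zc3h12a from -0.077 to 0.12 and Nfkb2 from -0.091 to 0.033. On day 3, Nfkbia ran from -0.0094 to 0.21, Birc3 from -0.011 to 0.056 and Relb from -0.020 to 0.046. On day 7, Nfkbia ran from -0.37 to 0.28, Nfkbiz from -0.14 to 0.19, Tnfaip3 from -0.0074 to 0.52, Zc3h12a from -0.40 to 0.35, Birc3 from -0.36 to 0.018 and Relb from -0.048 to 0.16. For day 7 over day 3, Relb ran from -0.018 to 0.11 in WT and from -0.015 to 0.16 in KO, and in KO Birc3 ran from -0.23 to 0.13 and Nfkb2 from -0.039 to 0.11. Against day 0 in KO, Nfkb2 ran from -0.066 to 0.026 on day 3 and from -0.070 to 0.088 on day 7, and Birc3 from -0.038 to 0.37 on day 7. In the interaction, Tnf ran from -0.32 to 0.24, Nfkbia from -0.49 to 0.16, Tnfaip3 from -0.45 to 0.14 and Relb from -0.054 to 0.047.

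Of the WT calls for day 7 over day 3, those of Tnf, Nfkbiz, Tnfaip3, Zc3h12a and Tnfaip2 remained under each alternative that kept all libraries, while that of Nfkbia was lost in 1 fit of all libraries (0.79, adjusted p = 0.0515). In KO that of Nfkbiz was lost without a filter (0.60, adjusted p = 0.0522), Tnfaip3 passed in the Wald test of DESeq2 (0.89, adjusted p = 0.0433) and in 1 fit of all libraries (0.93, adjusted p = 0.0256), and Nfkbia in 1 fit of all libraries (0.83, adjusted p = 0.0380). Of the pathway list, the number that fell in WT was 1 with DESeq2 size factors in edgeR, with a mean CPM of at least 1, with lane 1 alone and in 1 fit of all libraries, 2 by DESeq2, and 0 to 2 when a library was left out. In KO it was 1 to 2 when libraries were left out. No paired analysis was possible because the animal numbers are unique and the groups share no replicate number. Depth limits Tnfaip2 most, which had as few as 2 counts in a day 0 library.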
